A study of Mus musculus with 24 samples.

Results

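Endothelial cells line blood and lymphatic vessels, and a small set of receptors, surface proteins and transcription factors marks them in the mouse embryo. The 10 genes described here are KDR and FLT1, both receptors for vascular endothelial growth factor (VEGF), TEK and TIE1, the angiopoietin receptor and its partner, the surface proteins CDH5, PECAM1 and EMCN, the hyaluronan receptor LYVE1, and the ETS-family transcription factors ETV2 and FLI1. They were found by name among 31483 target IDs, the transcript targets of an Illumina bead array, which report a gene through 1 or more probes. All 10 had a target ID, of which 2 carried an older name: Lyve1 was listed as XLKD1 and Etv2 as ETSRP71. Kdr, Flt1, Cdh5 and Pecam1 each had 2 probes and the other genes 1. Values were given on all 24 arrays for 9 of the genes, and for Lyve1 on 12, those of E9.5 and E11.5.

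The study asked how loss of 1 copy of Cirh1a, which encodes a nucleolar protein of the small ribosomal subunit processome, alters transcripts during mouse development. The 24 arrays fall into 8 groups of 3, all of strain C57BL/6 JAX: whole embryos of embryonic day (E) 8.5 and of E9.5, and livers of E11.5 and of E12.5, each as wild type and as Cirh1a+/-. The mutant allele was a β-Geo gene-trap, the mutants kept 1 wild-type allele, and the controls were littermates genotyped from yolk sac DNA. Whether embryos were pooled is not given in the labels, so the p-values measure the spread between these samples. At E9.5 each sample carried transcripts of both sexes, as given below. Each sample was a bulk extract, in which fewer endothelial cells and less RNA per endothelial cell cannot be told apart.

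In mouse development, Etv2 acts at the start of the endothelial and blood lineages and is then switched off, while Fli1 and other ETS factors stay on in endothelium and in megakaryocytes. ETS factors bind DNA at a GGAA core, and endothelial promoters and enhancers are known for carrying such motifs. Kdr, Flt1, Tek and Tie1 carry the VEGF and angiopoietin signals, Cdh5 and Pecam1 hold endothelial cells together at their junctions, and Emcn is a sialomucin of capillaries and veins. Lyve1 marks lymphatic endothelium, the sinusoids of the liver and some macrophages.

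Promoter sequences from RefSeq (build GRCm38.p6), running from 250 bases before to 50 bases after the annotated start, were at hand for 6 of the 10 genes: Kdr, Flt1, Tek, Tie1, Emcn and Etv2. They were searched on both strands for the core and for a pair of longer motifs that contain it, so that every match of these also counts as a match of the core. The GGAA core occurred 11 times in the Etv2 promoter, 9 times in that of Tie1, 6 times in Emcn, 5 times in Kdr, 4 times in Flt1 and 2 times in Tek. It occurred in 96.0% of 32851 promoters of the same length, with a median of 3 matches. AGGAAG occurred 2 times each in the Flt1, Tie1 and Emcn promoters, 1 time in that of Etv2 and not in the Kdr and Tek windows, and 35.4% of all promoters held it. CCGGAA occurred 1 time, in the Kdr window, and 14.9% of all promoters held it. The sequences of Etv2, whose log2 level differed most between E8.5 embryo and E12.5 liver, and of the 3 promoters with 2 AGGAAG matches follow, 5′ to 3′ along the gene's strand, with AGGAAG or its reverse complement CTTCCT in capitals.
Etv2 promoter, chr7:30635803-30636102, minus strand: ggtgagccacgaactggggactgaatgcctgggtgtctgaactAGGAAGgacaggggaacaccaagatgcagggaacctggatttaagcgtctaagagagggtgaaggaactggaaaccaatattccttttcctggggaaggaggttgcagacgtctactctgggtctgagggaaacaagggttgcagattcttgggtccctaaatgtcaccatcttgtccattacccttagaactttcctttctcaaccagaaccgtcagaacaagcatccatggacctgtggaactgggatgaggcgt
Flt1 promoter, chr5:147725962-147726261, minus strand: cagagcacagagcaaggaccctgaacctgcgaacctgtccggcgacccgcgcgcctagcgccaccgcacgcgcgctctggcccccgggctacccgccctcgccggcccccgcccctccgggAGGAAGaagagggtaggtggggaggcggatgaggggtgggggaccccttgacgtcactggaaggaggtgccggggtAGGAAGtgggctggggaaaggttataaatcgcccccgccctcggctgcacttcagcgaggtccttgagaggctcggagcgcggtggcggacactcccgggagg
Tie1 promoter, chr4:118489800-118490099, minus strand: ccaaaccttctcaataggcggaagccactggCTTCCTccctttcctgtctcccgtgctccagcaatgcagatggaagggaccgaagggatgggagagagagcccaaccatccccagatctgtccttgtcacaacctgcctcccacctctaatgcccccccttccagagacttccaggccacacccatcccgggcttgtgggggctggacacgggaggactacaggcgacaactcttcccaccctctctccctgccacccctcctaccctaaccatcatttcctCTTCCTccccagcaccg
Emcn promoter, chr3:137340828-137341127, plus strand: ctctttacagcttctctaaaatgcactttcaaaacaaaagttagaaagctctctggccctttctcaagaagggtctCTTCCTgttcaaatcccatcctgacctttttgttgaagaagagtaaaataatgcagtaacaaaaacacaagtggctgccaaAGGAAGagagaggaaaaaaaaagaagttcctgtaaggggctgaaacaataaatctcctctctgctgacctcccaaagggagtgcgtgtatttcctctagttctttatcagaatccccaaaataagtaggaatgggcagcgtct
These matches describe letters in the windows only, since the arrays hold no measurement of binding.

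All values below are the deposited log2 levels, normalized by the authors. Arrays of E8.5 and of E12.5 shared 1 distribution of values, while those of E9.5 had another and those of E11.5 a further one, so log2 levels were compared between E8.5 and E12.5 only, and elsewhere the position among all target IDs of the array, the percentile, was used. The percentiles rest on 25207 target IDs at E8.5 and at E12.5, on 31483 at E9.5 and on 31468 at E11.5. Small differences in percentile between stages with different sets are therefore not strictly comparable. Probes differ in how strongly they bind, so no level was set against that of another gene. The targeted gene, Cirh1a, differed by -0.95 ± 0.15 (SE) on the log2 scale at E8.5, by -0.86 ± 0.07 at E9.5 and by -0.92 ± 0.12 at E12.5 in the mutants, and passed the test at E9.5 (limma adjusted p = 0.00771), with no value analysed here at E11.5. Of 15 hepatocyte markers, 14 lay above the median in E11.5 livers, with Afp at the 98.6th percentile and Alb at the 52.2nd. A set of 198 target IDs lay below the median at E8.5 while standing in the upper quintile in E9.5, E11.5 and E12.5 samples. Of these, 185 had several probes, against 1743 of the 3765 other target IDs of that upper quintile. The same search found 0 such target IDs for each later stage. Flt1 was among the 198. At E8.5 the sex-linked genes split with genotype, with Xist 7.49 higher and the Y-linked Kdm5d lower (-5.22) in the mutants, so genotype and sex cannot be told apart at that stage. On all 6 arrays of E9.5, Xist (9.34 to 11.13) and the Y-linked Eif2s3y (8.65 to 9.68) both lay above the median. At E11.5 both genotypes held arrays high in Xist and arrays high in Eif2s3y. In E12.5 livers the first mutant had Xist at 7.90 and Eif2s3y at 2.62. The other E12.5 arrays had Xist at 1.81 to 2.19 and Eif2s3y at 8.40 to 8.85.

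Most of the endothelial transcripts stood above the middle of their arrays: 7 of 9 genes in E8.5 embryos, 9 of 10 in E9.5 embryos, 9 of 10 in E11.5 livers and 8 of 9 in E12.5 livers. The median percentile of the genes was 70.5, 78.5, 78.0 and 76.1 in the order of the stages. The exceptions were Kdr at the first 3 stages, Flt1 at E8.5 and Etv2 at E12.5. The ordering of stages differed from gene to gene, as the plot of percentiles by stage shows.

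**Figure D1:**
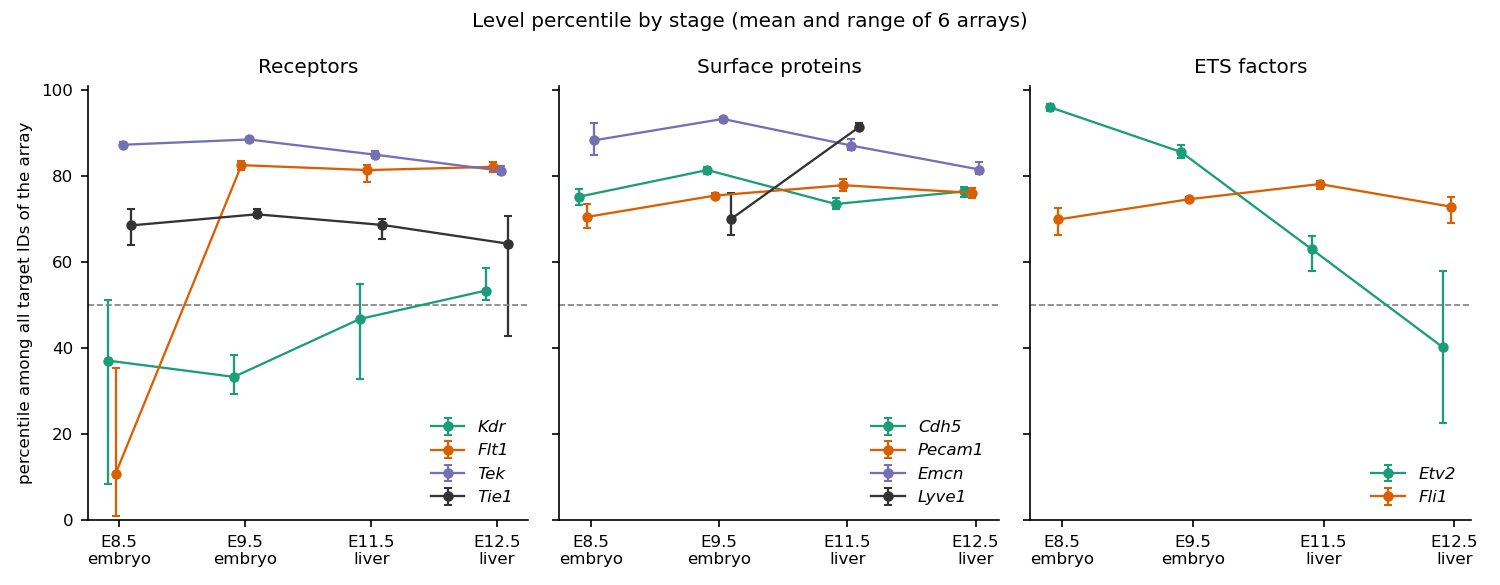
Mean level percentile among all target IDs of an array (vertical axis, percent) at the 4 stages for receptors, surface proteins and ETS factors; bars span the lowest and highest of 6 arrays and the dashed line marks the median target ID. Etv2 goes from the 96.0th to the 40.2nd percentile, Lyve1 lies at the 70.0th and the 91.4th in E9.5 embryos and E11.5 livers, and Flt1 at E8.5 stands apart at the 10.7th.

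Among the VEGF receptors, Kdr had stage means near or below the median. Its mean percentile was 37.1 and 33.3 in E8.5 and E9.5 embryos and 46.8 and 53.4 in E11.5 and E12.5 livers, with ranges that overlapped between neighbours in the order of level, and its arrays at E8.5 ran from the 8.47th to the 51.2nd. Its means at the first 3 stages were below the median, so its genotype difference was tested at E12.5 alone. Flt1, which binds VEGF and limits its signal through Kdr, stood at the 82.6th, 81.4th and 82.2nd percentiles from E9.5 onward, whose ranges overlapped, and at the 10.7th at E8.5.

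Tek, the receptor of the angiopoietins, lay at the 88.6th percentile at E9.5, the 87.3rd at E8.5, the 85.0th at E11.5 and the 81.3rd at E12.5, and no range overlapped its neighbour. Tie1, which pairs with Tek, lay between the 64.3rd and the 71.1st percentile at all 4 stages, highest at E9.5, and its range at E9.5 did not overlap that at E11.5. The junction protein Cdh5 was highest at E9.5, at the 81.4th percentile, and between the 73.5th and the 76.5th at the other stages. Pecam1 was lowest at E8.5, at the 70.5th percentile, and between the 75.5th and 77.9th later. Emcn stood at the 93.3rd percentile at E9.5, the 88.4th at E8.5, the 87.1st at E11.5 and the 81.6th at E12.5, and only E8.5 and E11.5 overlapped.

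The widest spread of percentiles, apart from Flt1 at E8.5, belonged to Etv2 and Lyve1. Etv2 stood at the 96.0th percentile in E8.5 embryos, the 85.6th in E9.5 embryos, the 63.0th in E11.5 livers and the 40.2nd in E12.5 livers, where it was below the median. The ranges of the first 3 stages did not overlap, and those of E11.5 and E12.5 overlapped. Lyve1 stood at the 70.0th percentile in E9.5 embryos and at the 91.4th in E11.5 livers, without overlap. Fli1 varied far less, between the 69.9th percentile at E8.5 and the 78.2nd at E11.5. Stage and tissue changed together after E9.5, so the difference between embryo and liver cannot be told apart from that of age.

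**Figure D2:**
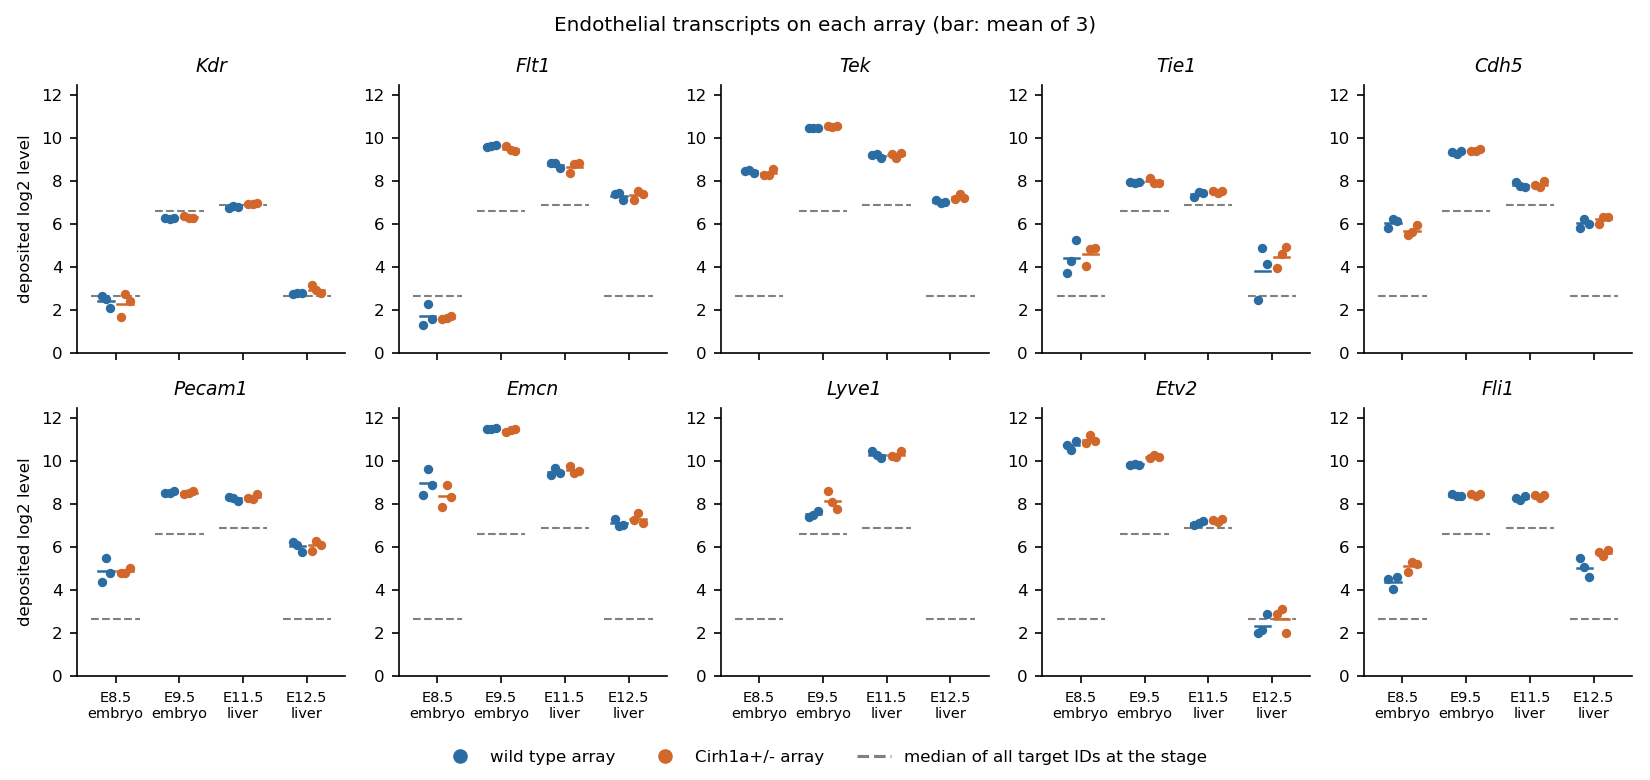
Deposited log2 level of each gene (vertical axis) on each of the 24 arrays by stage and tissue, wild type in blue and Cirh1a+/- in orange, with the mean of 3 as a bar and the median of all target IDs as a dashed line; E8.5 and E12.5 share 1 scale, E9.5 and E11.5 have their own. Etv2 lies at 10.52 to 11.21 at E8.5 and at 1.99 to 3.12 at E12.5, and Fli1 separates by genotype at E8.5 and E12.5.

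Between E8.5 whole embryo and E12.5 liver, which were normalized together, Etv2 fell and Flt1 rose by far more than any other gene of the set. Etv2 measured 10.78, 10.52 and 10.94 in wild-type and 10.86, 11.21 and 10.94 in Cirh1a+/- embryos at E8.5. In E12.5 livers it measured 2.01, 2.13 and 2.88 in wild type and 2.90, 3.12 and 1.99 in Cirh1a+/-. The E12.5 values straddled or lay under the median of their arrays, so the difference is a bound: the level was at least 301.5-fold lower in E12.5 liver, taken against the stage median (8.24 on the log2 scale; fitted difference -8.37 ± 0.20 SE, n = 6 and 6, limma adjusted p = 2.17e-12).

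Flt1 measured 1.32, 2.27 and 1.59 in wild-type and 1.57, 1.62 and 1.73 in Cirh1a+/- embryos at E8.5. At E12.5 it measured 7.40, 7.43 and 7.11 in wild type and 7.12, 7.57 and 7.41 in Cirh1a+/- liver. All E12.5 arrays were above all E8.5 arrays, a rise of at least 25.8-fold against the E8.5 median (fitted difference 5.66 ± 0.15 SE, limma adjusted p = 5.31e-12). Flt1, which had 2 probes, belongs to the target IDs with a value below the median at E8.5 alone, described above. Most of these had several probes, and the part of that pattern in this rise was not tested.

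Tek fell by 1.27 ± 0.09 (SE) on the log2 scale from a mean of 8.43 at E8.5 to 7.15 at E12.5 (limma adjusted p = 5.54e-08). Emcn fell by 1.47 ± 0.25 from 8.68 to 7.21 (adjusted p = 0.000151 by limma). Both genes were higher in every E8.5 array than in any E12.5 array. Pecam1 rose by 1.18 ± 0.18 from 4.88 to 6.06 (limma adjusted p = 5.66e-05), and Fli1 by 0.62 ± 0.16 from 4.76 to 5.39 (adjusted p = 0.00313 by limma). Kdr rose by 0.51 ± 0.18 from 2.36 to 2.86 (adjusted p = 0.0214 by limma), with its E8.5 mean below the median of all target IDs, against which the rise was at least 1.16-fold. Tie1, with a difference of -0.35 ± 0.40 (adjusted p = 0.438 by limma), and Cdh5, with 0.26 ± 0.15 (adjusted p = 0.130), did not pass the test. In all, 4 of 9 genes rose and 3 fell, where 29.5% of the 14626 target IDs tested rose and 44.5% fell, so the share that passed was near that of the array as a whole.

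The call for Kdr was lost in wild-type arrays alone (0.34, limma adjusted p = 0.144) and in Cirh1a+/- arrays alone (0.67, adjusted p = 0.0804), and that for Fli1 in wild-type arrays alone (0.64, adjusted p = 0.0707). Without the first E12.5 Cirh1a+/- liver, the Kdr difference was 0.44 (limma adjusted p = 0.0509). Cdh5 passed in Cirh1a+/- arrays alone (0.54, limma adjusted p = 0.0326) and had a difference of -0.03 in wild-type arrays.

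**Figure D3:**
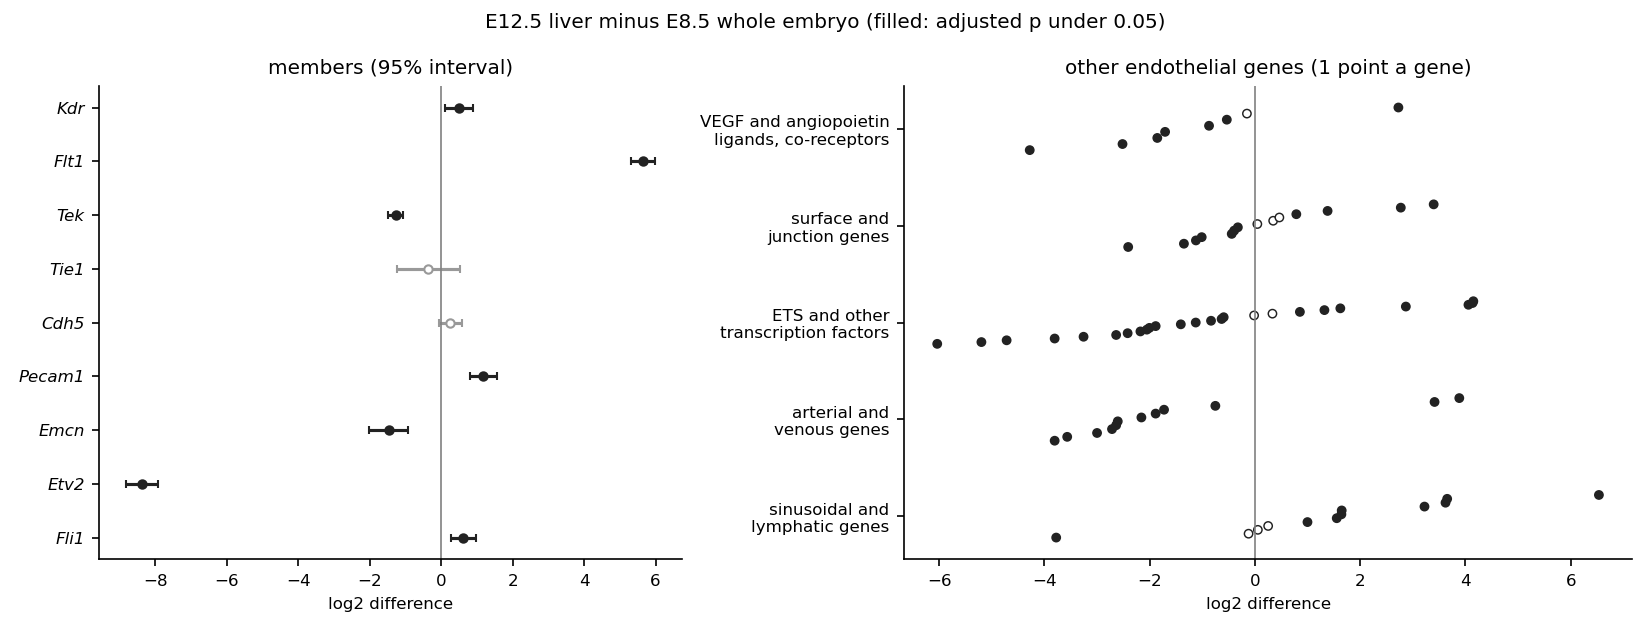
E12.5 liver minus E8.5 whole embryo as a log2 difference (horizontal axis) for the 9 genes with values, with 95% intervals, and for the other endothelial genes by list, 1 point a gene; filled points have an adjusted p under 0.05. Etv2 at -8.37 and Flt1 at 5.66 lie outermost on the left, and on the right the sinusoidal and lymphatic genes lie mostly above 0 and the arterial and venous genes mostly below.

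Lists of other endothelial genes are given next for the same interval, in which 29.5% of all target IDs rose and 44.5% fell, and no difference between the lists was tested. Of 12 sinusoidal and lymphatic genes tested, 8 rose and 1 fell, with a median difference of 1.60 on the log2 scale (1.2 with genes below a stage median set to it), where the median of all target IDs was -0.25. Stab1 and Stab2, scavenger receptors of the liver sinusoid, rose by 6.54 ± 0.18 (SE) and 3.65 ± 0.27 (limma adjusted p = 7.31e-12 and 8.33e-08). In order of age, Stab1 stood at the 72.9th, 68.3rd, 73.5th and 98.1st percentiles, so E11.5 liver was near the embryos. Stab2 stood at the 65.0th, 61.4th, 80.0th and 82.6th. Mrc1, a mannose receptor shared by sinusoidal endothelium and macrophages, rose by 3.22 ± 0.27, and the podoplanin gene Pdpn, a lymphatic and mesothelial marker, fell by 3.78 ± 0.18.

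Of 12 arterial and venous genes, 2 rose and 10 fell, with a median of -2.38. Hey1, a Notch target of arteries, fell by 3.81 ± 0.16, the arterial ligand gene Efnb2 fell by 3.57 ± 0.22 and its venous receptor gene Ephb4 fell by 2.16 ± 0.10. Notch4 and the connexin gene Gja5 were the 2 that rose, from E8.5 means at or below the median, by at least 14.7-fold and 5.98-fold against it. Of 8 VEGF and angiopoietin ligands and co-receptors, 1 rose and 6 fell. Vegfa, the main ligand of Kdr and Flt1, fell by 2.52 ± 0.13, and the co-receptor gene Nrp2, below the median at E12.5, fell at least 14.5-fold against it.

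Among 25 other endothelial transcription factors, ETS members included, 7 rose and 16 fell (median -1.13). The ETS genes divided: Elf1 rose by 1.62 ± 0.09, and Elk3, below the median at E8.5, rose at least 9.61-fold against it, while Etv4 fell by 4.72 ± 0.21, Etv5 fell by 3.26 ± 0.16 and Ets1 fell by 2.01 ± 0.15. Tal1, Lyl1 and Lmo2, transcription factors shared by endothelium and blood, rose by 4.15 ± 0.16, 4.06 ± 0.17 and 2.87 ± 0.08. Of 14 surface and junction genes, 4 rose and 7 fell, shares near those of the array as a whole. In that list Rasip1 fell by 2.41 ± 0.12, and Robo4, below the median at E8.5, rose at least 9.44-fold against it.

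Markers of other cells moved over the same interval: 11 of 13 macrophage markers tested rose (median 5.37, or 4.56 with levels below a stage median set to it), as did 11 of 11 megakaryocyte markers (5.32, or 5.26), while 8 of 8 cardiac markers fell (-5.01). Stab1, Mrc1 and Lyve1 are also made by macrophages, and Pecam1 and Fli1 by megakaryocytes and other blood cells. The part of these cells in the changes above was not tested. Lyve1 could not be entered here, for want of values at E8.5 and E12.5.

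Cirh1a+/- and wild-type samples were compared within each stage. No gene of the set passed the test at any stage, where 0.0238% of 12603 target IDs passed at E8.5 (3), 0.00635% of 15741 at E9.5 (1), 0% of 15734 in E11.5 livers and 0% of 12603 in E12.5 livers. The 3 at E8.5 were Xist and the Y-linked Eif2s3y and Kdm5d, and the 1 at E9.5 was Cirh1a itself. At an unadjusted p under 0.05, 475, 1742, 414 and 486 target IDs passed at the 4 stages (3.77%, 11.1%, 2.63% and 3.86%), among them Fli1 at E8.5 and E12.5 and Lyve1 and Etv2 at E9.5, all with positive differences. With 3 arrays against 3, an exact permutation test cannot go below a p of 0.1. In simulated data the E8.5 fit recovered 0% of log2 shifts of 1, so a gene not passing there could still differ by that much.

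In some genes every mutant array lay above every control: Fli1 at E8.5, Tek, Cdh5, Lyve1 and Etv2 at E9.5, and Tek and Fli1 at E12.5. That is 1 of 7 genes tested at E8.5, where 3.96% of all target IDs tested separated upward and 3.02% downward. It is 4 of 9 at E9.5, where 8.33% separated upward and 9.27% downward, and 2 of 8 at E12.5, against 3.52% and 3.6%. At E11.5 none of the 9 genes tested separated, against 4.14% upward and 4.05% downward. No gene had every mutant below every control. Differences were positive for 3 of 7 genes in E8.5 and 6 of 9 in E9.5 embryos, and for 7 of 9 in E11.5 and 8 of 8 in E12.5 livers, with medians of -0.02, 0.05, 0.05 and 0.20 on the log2 scale beside medians near 0 over all target IDs. The genes of a stage share the same 6 arrays and are not independent.

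**Figure D4:**
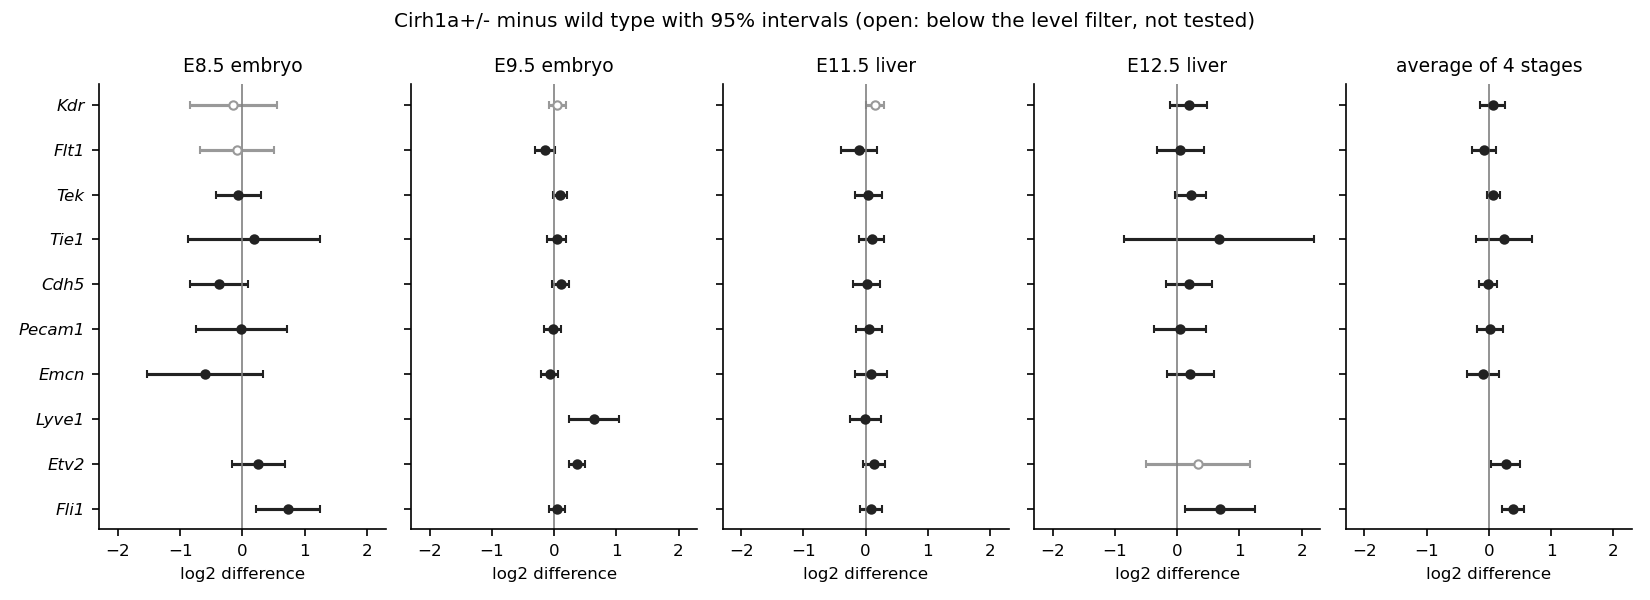
Cirh1a+/- minus wild type on the log2 scale (horizontal axis) with 95% intervals for each gene at each stage and averaged over the 4 stages; open grey points lay below the level filter and were not tested. Intervals lie to the right of 0 for Fli1 at E8.5 and E12.5, for Lyve1 and Etv2 at E9.5, for Fli1 and Etv2 in the average and for Kdr at E11.5, which was not tested, and those of Tie1 at E12.5 and Emcn at E8.5 are wide.

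Fli1 had its largest differences between the genotypes at the youngest and oldest stages. At E8.5 it measured 4.50, 4.07 and 4.63 in wild-type and 4.86, 5.31 and 5.21 in Cirh1a+/- embryos. All 3 mutant arrays were above all 3 controls, by 0.73 ± 0.21 (SE) on average, a fold of 1.66 (95% interval 1.16 to 2.36; limma adjusted p = 1.00, unadjusted p = 0.0124). In the joint fit of all 24 arrays, which uses 1 spread for all stages, the E8.5 difference passed the test (limma adjusted p = 0.0354), as did 1.77% of 16402 target IDs. The median SE of the fits by stage was 0.223 at E8.5 and 0.065 at E9.5, so the stages differ in the spread that the joint fit shares.

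At E12.5 Fli1 measured 5.47, 5.06 and 4.60 in wild-type and 5.77, 5.57 and 5.85 in Cirh1a+/- livers. Again no mutant overlapped a control, and the difference of 0.69 ± 0.23 was a fold of 1.61 (95% interval 1.09 to 2.38; limma adjusted p = 1.00). At E9.5 Fli1 measured 8.45, 8.39 and 8.36 in wild type and 8.47, 8.40 and 8.48 in Cirh1a+/-, and at E11.5 8.30, 8.19 and 8.36 against 8.41, 8.30 and 8.41. There the genotypes overlapped, with differences of 0.05 ± 0.05 and 0.08 ± 0.08.

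Averaged over the 4 stages, the Fli1 difference was 0.39 ± 0.09, a fold of 1.31 (95% interval 1.16 to 1.48). It ranked 10 of 16402 target IDs by p, yet did not pass after adjustment over all of them (limma adjusted p = 0.364), where 0% of target IDs passed and 879 had an unadjusted p under 0.05. The difference was positive at 4 of 4 stages and 11 of 12 mutant arrays lay above the wild-type mean of their stage. An exact two-sided permutation test of Fli1 alone, with genotypes permuted within stages, gave p = 0.000238 before any correction for the choice of gene. Without the E8.5 arrays, where genotype runs with sex, the average was 0.27 (limma adjusted p = 0.575), and with the level of Y-linked genes as a covariate it was 0.36 (adjusted p = 0.620).

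Fli1 is also a transcription factor of megakaryocytes. Of the megakaryocyte markers tested, 2 of 5 had positive differences at E8.5 (median -0.39) and 9 of 11 at E12.5 (median 0.13). Their mean deviation from the stage mean, per array, ran from -0.41 to 0.37 in wild type and from -0.20 to -0.02 in Cirh1a+/- at E8.5. At E12.5 it ran from -0.23 to 0.14 and from -0.05 to 0.20. The genotypes overlapped in these markers at both stages, and their part in the Fli1 difference was not tested. The first Cirh1a+/- embryo at E8.5 was low in erythroid genes, with Hba-x, an embryonic globin gene, at 8.01 against 12.02 to 13.23 in the other 5, and without it the Fli1 difference was 0.86.

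Etv2 had its smallest p at E9.5, with values of 9.82, 9.88 and 9.84 in wild type and 10.14, 10.30 and 10.21 in Cirh1a+/-. The lowest mutant stood above the highest control, and the gap between the groups was wider than either group's range. Marker lists of other tissues, as the mean deviation from the stage mean over genes above the median, also separated by genotype at E9.5. The neural list ran from 0.05 to 0.14 in wild type and from -0.16 to -0.06 in Cirh1a+/-, the megakaryocyte list from -0.03 to 0.35 and from -0.18 to -0.11, and the cardiac list from -0.08 to -0.04 and from -0.01 to 0.19. The hepatocyte and visceral endoderm lists, given with Lyve1, separated too, and the part of these tissues in the Etv2 difference was not tested. The difference was 0.37 ± 0.06, a fold of 1.29 (95% interval 1.18 to 1.41), ranked 17 of 15741 target IDs, with a limma adjusted p of 0.112. It passed when the level filter was raised to the 75th percentile (limma adjusted p = 0.0356) and when the prior variance was allowed to follow the level (adjusted p = 0.0456), settings under which 0.178% and 0.0889% of target IDs passed. It did not pass with no filter (limma adjusted p = 0.190), with a replicate block (adjusted p = 0.210) or in the joint fit of all 24 arrays (adjusted p = 1.00), where 0% passed. With the level of Y-linked genes as a covariate, which at E9.5 correlated with genotype, the difference was 0.42 (limma adjusted p = 0.318).

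At the other stages Etv2 overlapped between the genotypes. The difference was 0.26 ± 0.18 at E8.5 and 0.13 ± 0.08 at E11.5, where wild-type livers measured 7.03, 7.11 and 7.20 and Cirh1a+/- livers 7.27, 7.19 and 7.29. At E12.5, with the mean below the median, it was not tested, and its difference was 0.33 with an interval from -0.50 to 1.16. The average over the stages was 0.27 ± 0.11 (limma adjusted p = 0.874), positive at 4 of 4 stages with 11 of 12 mutant arrays above the wild-type mean. The exact permutation test within stages gave p = 0.0281 for Etv2 alone, uncorrected.

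Lyve1 separated by genotype in E9.5 embryos and overlapped in E11.5 livers. At E9.5 it measured 7.42, 7.48 and 7.68 in wild type and 8.62, 8.10 and 7.76 in Cirh1a+/-. The groups did not overlap, although the third mutant array was close to the highest control. The difference was 0.64 ± 0.18, a fold of 1.55 (95% interval 1.18 to 2.05; limma adjusted p = 0.245), and 0.52 with the Y-linked covariate. Without the first mutant array it was 0.41, and without the third 0.84.

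At E11.5 Lyve1 measured 10.50, 10.28 and 10.15 in wild-type and 10.24, 10.21 and 10.47 in Cirh1a+/- livers. The groups overlapped throughout, with a difference of -0.00 ± 0.11 and an interval from -0.26 to 0.25. The effect at E11.5 minus that at E9.5 was -0.64 ± 0.23 and did not pass (limma adjusted p = 0.934), where 0% of 17833 target IDs did.

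Visceral endoderm and hepatocyte markers ran in the same order of arrays as Lyve1 among the mutants at E9.5. Apoa1, an apolipoprotein gene, measured 10.21, 10.17 and 10.53 in wild type and 12.17, 11.69 and 10.93 in Cirh1a+/-. Amn, the amnionless gene of visceral endoderm, measured 8.67, 8.57 and 9.05 against 10.52, 9.89 and 9.38. Of the 15 hepatocyte genes, 11 lay above the median at E9.5 and were tested, and 11 of 11 had positive differences (median 0.85). Alb was not among them, at the 3.94th percentile, with means of 5.95 in wild type and 5.88 in Cirh1a+/-. Of the visceral endoderm list 8 of 9 were positive (median 0.74). The mean deviation of the hepatocyte genes tested ran from -0.46 to -0.31 in wild type and from -0.08 to 0.93 in Cirh1a+/-. That of the visceral endoderm list ran from -0.40 to -0.19 and from -0.03 to 0.75. The part of these tissues in the Lyve1 difference was not tested.

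Some macrophages also carry Lyve1. Macrophage markers were mostly low at E9.5, with 4 of 14 above the median, Csf1r at the 29.4th percentile and C1qa at the 55.5th. C1qa measured 6.75, 6.74 and 6.66 in wild type and 7.11, 6.99 and 6.56 in Cirh1a+/-. These ran in the order of Lyve1 among the mutants but with overlapping genotypes. Csf1r, below the median, went the other way, with 6.20, 6.28 and 6.46 in wild type and 6.17, 6.11 and 6.14 in Cirh1a+/-. Lyz2 and Adgre1, also below the median, overlapped between the genotypes. Over the 4 markers above the median, the mean deviation from the stage mean ran from -0.04 to 0.01 in wild type and from -0.02 to 0.05 in Cirh1a+/-. Of 10 other sinusoidal and lymphatic genes tested at E9.5, 7 were positive, with a median of 0.07, and none passed. The smallest p in that list was for Mrc1, with 0.24 ± 0.10, and the next for Clec4g, a lectin of liver sinusoids, with 0.14 ± 0.06.

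For the receptors, most intervals at E9.5 and E11.5 were narrow and covered 0. At E9.5 Tek measured 10.46, 10.47 and 10.46 in wild type and 10.58, 10.51 and 10.57 in Cirh1a+/-, which did not overlap, with a difference of 0.09 ± 0.05 (limma adjusted p = 0.548). At E12.5 Tek measured 7.13, 6.98 and 7.02 against 7.18, 7.39 and 7.21, again without overlap (0.22 ± 0.10, limma adjusted p = 1.00). At E8.5 and E11.5 its genotypes overlapped, and the average over the stages was 0.07 with an interval from -0.03 to 0.17.

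Tie1 had 1 wild-type liver at E12.5 at 2.46, against 4.87 and 4.14 in the others and 3.96, 4.59 and 4.92 in Cirh1a+/-. Its difference of 0.67 ± 0.63 there rested on that array and was -0.01 without it. At E9.5 and E11.5 the Tie1 difference was 0.04 ± 0.07 and 0.10 ± 0.09. Flt1 had a difference of -0.14 ± 0.07 in E9.5 embryos and differences of -0.11 ± 0.13 and 0.05 ± 0.16 in the livers of E11.5 and E12.5, and none passed. Kdr at E11.5 measured 6.74, 6.86 and 6.81 in wild type and 6.95, 6.95 and 6.97 in Cirh1a+/-, which did not overlap, but its mean was just below the median, so it was not tested. At E12.5 the Kdr difference was 0.19 ± 0.12, with overlapping groups.

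The surface proteins showed no difference that passed the test. At E9.5 Cdh5 measured 9.36, 9.25 and 9.40 in wild type and 9.42, 9.41 and 9.51 in Cirh1a+/-, just apart, with a difference of 0.11 ± 0.06 (limma adjusted p = 0.554). At E8.5 it measured 5.81, 6.24 and 6.13 against 5.48, 5.63 and 5.94, where the mutants were lower on average by 0.38 ± 0.19 but overlapped. Pecam1 differed by -0.02 to 0.05 at the 4 stages, with intervals from -0.16 to 0.11 at E9.5 and from -0.74 to 0.71 at E8.5.

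Emcn at E8.5 measured 8.41, 9.64 and 8.89 in wild-type and 7.89, 8.92 and 8.33 in Cirh1a+/- embryos, a difference of -0.60 ± 0.39 with overlapping groups, which was -0.27 without the second wild-type embryo and -0.89 without the first. In the later groups, in order of age, it was -0.07 ± 0.06, 0.08 ± 0.11 and 0.21 ± 0.16. Averaged over the stages, Cdh5, Pecam1 and Emcn differed by -0.01, 0.02 and -0.10, and their intervals lay within -0.35 and 0.22. As folds, these intervals reached from 0.785 to 1.17 at most.

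The difference of the genotype effect between liver and whole embryo passed for no gene of the set, where 0.0061% of 16402 target IDs passed (1). It was largest for Emcn, at 0.48 ± 0.24 (limma adjusted p = 0.998), and -0.00 ± 0.17 for Fli1.

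Among the other endothelial lists, none of the genes tested passed at any stage. The vascular transcription factor Klf2, which responds to flow, had a difference of -0.93 ± 0.19 at E8.5 (limma adjusted p = 0.947), and Pgf, a ligand of Flt1, a difference of 1.41 ± 0.50 (adjusted p = 1.00). At E9.5 the smallest p belonged to the Notch receptor gene Notch1, with -0.39 ± 0.08 (limma adjusted p = 0.157), followed among the ligands by Vegfd with -0.25 ± 0.06 (adjusted p = 0.190). At E12.5 the lymphatic chemokine gene Ccl21a had a difference of -0.62 ± 0.16 (limma adjusted p = 0.989), and the arterial factor gene Hey2 of -0.56 ± 0.16 (adjusted p = 1.00). No endothelial list had more than 5 genes at an unadjusted p under 0.05 in 1 direction at any stage, the highest being 5 of 19 surface and junction genes at E9.5, where 5.2% of all target IDs were so in the same direction.

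From array to array within a group, the 5 receptor and surface genes that lay above the median at all stages were mostly positively correlated. Over the deviations of the 24 arrays from the mean of their stage and genotype, 9 of the 10 pairs among Tek, Tie1, Cdh5, Pecam1 and Emcn were positively correlated, with a median Pearson r of 0.36 and a range from -0.14 (Tek with Tie1) to 0.67 (Pecam1 with Emcn). The E8.5 and E12.5 arrays held 47.2% and 48.1% of the sum of squares behind these values, and the arrays share their normalization, so the values are descriptions without a test. Flt1 had an r of 0.88 with Pecam1 over the same 24 arrays, which include its E8.5 values below the median, and of 0.54 when deviations were divided by the SD of their stage. The mean r with the 5 genes was 0.49 for Flt1 and 0.09 for Kdr. For the ETS factors it was -0.08 for Fli1, with a range from -0.15 to 0.01, and -0.05 for Etv2, with a range from -0.33 to 0.12.

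The 5 target IDs whose deviations were most like those of the 5 genes, out of 8929 above the median at all stages, were Ltbp3 (mean r 0.66), C230043G09RIK (0.62), Elovl6 (0.62), Map10 (0.61) and Usp40 (0.61), where the median over all was 0.01. By the same measure, each against the other 4 genes, Cdh5 ranked 186, Pecam1 356, Emcn 1305, Tek 1995 and Tie1 2904. When each deviation was divided by the SD of its stage, the first 5 were other target IDs, led by Magee1 (0.57), and the median r of the 10 pairs was 0.31.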

How the data were processed

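Transcript levels of 24 samples were analysed from the deposited log2 values per target ID, made by the authors from Illumina bead arrays of biotinylated cRNA, per the labels' protocols. Background correction, normalization and software are not given in the sources used here. Judged by their distributions, arrays of E8.5 were normalized with those of E12.5, and the other stages apart. A further 4 tables hold 48 columns under names that match no sample label, so of these only the identifiers served, for the number of probes per target ID. The submitters' design text and labels gave the groups. Of 31483 target IDs, 13425 matched a RefSeq gene symbol, 8109 a synonym, and 9949 kept their name.

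Within a stage, target IDs with a mean above the stage median entered a linear model of mutant minus wild type (limma 3.58.1, R 4.3.3), and two-sided p-values were adjusted by the Benjamini-Hochberg method over all of them (threshold 0.05). A joint fit of the target IDs with values on all 24 arrays gave the average effect and liver minus embryo, another of E9.5 and E11.5 their difference, and a fit of 12 arrays E12.5 minus E8.5. Fits were tested on simulated data. Members and gene lists were chosen with earlier results of these data known. Every member was named. From other endothelial lists, only some of the genes past the threshold were named, or else some of those with the smallest p. The replicate numbers were not used to pair samples, and same-numbered deviations correlated at -0.39 to 0.18. These values cannot show whether the numbers mark litters. Alternatives covered the filter, normalization, variance model, array weights, a replicate block, Y-linked level and arrays left out. The number of arrays limits the precision.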

Additional observations from a re-analysis of the deposited data

How the results depend on the processing

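All differences here are Cirh1a+/- minus wild type on the log2 scale unless said otherwise, and the causes of the moved values were not tested. Of 519 values of the genes of the set under alternatives that keep all replicates of a group, 494 kept direction and side of the threshold, 18 reversed, 4 newly passed and 3 no longer passed. Of 750 with 1 array left out, 697 kept both, 52 reversed and 1 no longer passed. Level percentiles were recomputed over target IDs with values on all 24 arrays, over those with 1 probe and on wild-type arrays only. Of 96 such percentiles, 18 moved by at least the SD of the 6 arrays and 78 did not. With 1 array left out, all 228 moved by less than that SD.

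The count of target IDs called at E8.5 went from 3 to 1 with the 75th-percentile filter and to 290 in the joint fit of 24 arrays, with 1 gene of the set (Fli1, 0.73) among them. At E9.5 it went from 1 to 14 with that filter, to 14 with a variance trend, each with 1 gene of the set (Etv2), to 9 with array weights, to 0 in the joint fit and to 0 with the Y-linked covariate. At E12.5 it went from 0 to 1 with the trend and to 40 in the joint fit, none of them in the set. For the average over the stages it went from 0 to 2 with the trend, to 1 with the Y-linked covariate, and to 1, 2 and 5 without the E8.5, E11.5 and E12.5 arrays. For liver minus embryo it went from 1 to 3 with the Y-linked covariate and to 0 with array weights and without the arrays of any 1 stage. For E12.5 minus E8.5, target IDs with 1 probe gave 5791 calls against 10829, and 4 genes of the set against 7, since fewer were tested. The replicate numbers were not used to pair samples in the main fits. The fit with replicate as a block gave 2 calls at E9.5 and 0 for liver minus embryo, and changed no call of a gene of the set. Leaving out 1 array, the counts ran from 0 to 54 at E9.5 (without the third mutant), from 0 to 51 for the average and from 0 to 68 for liver minus embryo (both without the first E8.5 wild type), and from 0 to 1 for E11.5 minus E9.5 (without the third E9.5 mutant).

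The reversed values were small for most genes. With the Y-linked covariate, Tie1 was -0.0092 at E9.5, Cdh5 -0.0011 and Tek -0.024 at E11.5, and in the average Cdh5 was 0.049, Flt1 0.025 and Kdr -0.039. With array weights, Cdh5 was -0.00024 at E11.5 and Pecam1 -0.013 in the average. Without the E8.5 arrays, the averages of Cdh5 and Emcn were 0.11 and 0.074. For liver minus embryo, Fli1 was 0.00051 after quantile normalization, 0.014 with the Y-linked covariate, 0.34 without the E8.5 and 0.30 without the E11.5 arrays. In that difference Cdh5 was -0.0016 without E8.5, Etv2 0.021 without E11.5 and Tie1 -0.017 without E12.5. Cdh5 was -0.027 for E12.5 minus E8.5 in wild-type arrays only.

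Leaving out 1 array turned the direction of other values that had not passed. At E8.5 Pecam1 ran from -0.28 to 0.30 and Tie1 from -0.17 to 0.62. At E9.5 Pecam1 ran from -0.060 to 0.013 and Tie1 from -0.029 to 0.083. At E11.5 the ranges were -0.055 to 0.084 for Cdh5, -0.017 to 0.16 for Emcn, -0.20 to 0.030 for Flt1, -0.086 to 0.089 for Lyve1, -0.013 to 0.099 for Pecam1 and -0.017 to 0.12 for Tek. At E12.5 they were -0.051 to 0.17 for Flt1, -0.073 to 0.18 for Pecam1 and -0.011 to 1.19 for Tie1. In the average Cdh5 ran from -0.047 to 0.014 and Pecam1 from -0.051 to 0.094. For liver minus embryo the ranges were -0.19 to 0.090 for Etv2, -0.11 to 0.11 for Fli1, -0.050 to 0.19 for Flt1, -0.086 to 0.20 for Pecam1 and -0.071 to 0.53 for Tie1.

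The Y-linked covariate was not run at E8.5, where it runs with genotype. Chosen after seeing the data were the E11.5 minus E9.5 fit, the scaled likeness and percentiles for E12.5 minus E8.5, in which Kdr did not pass (16.3 percentile points, limma adjusted p = 0.0558). The median SE of the fits by stage ran from 0.065 at E9.5 to 0.223 at E8.5, so a difference had to be larger at E8.5 than at E9.5 to be detectable.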
